A study of Homo sapiens with 20 samples.

Results

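MDM2, MDM4, PPM1D and CCNG1 encode proteins that act back on the tumour suppressor p53. They were taken as a set by name, from the RefSeq annotation of the human genome (GRCh38.p14), and are 4 of 19974 protein-coding genes. Every peak that overlapped a gene body or the 50 kb on either side was assigned to that gene. MDM2 lies at chr12:68808172-68850686, MDM4 at chr1:204516406-204558120, PPM1D at chr17:60600193-60666280 and CCNG1 at chr5:163437571-163457640, all on the plus strand. The data were chromatin immunoprecipitation sequencing (ChIP-seq) peak lists from HCT116, a human colorectal carcinoma line. MLL4 knockout (KO) cells were set against wild-type (WT) cells, to address how MLL4 and p53 cooperate on chromatin. p53, H3K4me3 and H3K27ac were profiled in 2 KO and 2 WT libraries each, and MLL4, MLL1 and H3K4me1 in 1 KO and 1 WT library each. Both genotypes were grown in DMEM with serum, and the labels name no agent that activates p53. They do not say how the KO was made, whether it is 1 clone, or whether replicates were separate cultures, so the spread between replicates may be technical.

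p53 is a transcription factor that switches on genes of cell-cycle arrest, DNA repair and cell death, and among its targets are genes whose products restrain it. MDM2 is the ubiquitin ligase that marks p53 for degradation, and MDM4 (also called MDMX) is its relative that binds and masks the activation domain of p53. PPM1D encodes WIP1, a phosphatase that removes activating phosphates from p53 and from kinases of the DNA damage response, and CCNG1 encodes cyclin G1, which brings the phosphatase PP2A to MDM2. MLL4 (KMT2D) is the main methyltransferase for H3K4me1, the mark of enhancers, and MLL1 (KMT2A) is a related enzyme found at promoters. H3K4me3 marks active promoters, and H3K27ac marks active promoters and enhancers.

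The sequences shown are the promoters at which p53 and MLL4 peaks were found or looked for, each the 250 bases before a RefSeq transcript start. MDM2 has a known second promoter inside the gene, whose RefSeq transcript starts 845 bases after the gene start, and it holds the p53 response elements through which p53 induces MDM2. The capitals mark its 2 matches to the p53 full site, a consensus of 20 bases made of a pair of 10-base units, searched on both strands with no spacer and at most 3 mismatches.

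MDM2 second promoter, chr12:68808767-68809016, plus strand: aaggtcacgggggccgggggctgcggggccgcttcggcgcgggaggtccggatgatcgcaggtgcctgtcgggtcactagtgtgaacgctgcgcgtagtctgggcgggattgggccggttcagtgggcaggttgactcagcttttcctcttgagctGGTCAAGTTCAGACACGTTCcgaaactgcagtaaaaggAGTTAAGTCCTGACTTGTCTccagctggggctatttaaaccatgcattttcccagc

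The first match, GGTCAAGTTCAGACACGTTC, has 2 mismatches and lies 751 to 770 bases after the MDM2 gene start. The second, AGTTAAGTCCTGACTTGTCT, has 3 mismatches and lies at 789 to 808 bases. Of 35116 RefSeq promoter windows, each 250 bases before to 50 bases after a start, 0.649% held a match with at most 2 mismatches and 5.20% one with at most 3. The best matches in the windows at the gene starts themselves had 5 mismatches for MDM2, 5 for MDM4, 4 for PPM1D and 6 for CCNG1. The MDM2 and PPM1D gene-start promoters are shown next because p53 peaks lay on these starts in every library. The capitals in the PPM1D sequence mark TGACGTCA, a cyclic AMP response element that reads the same on both strands, 61 bases before the start.

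MDM2 gene start, chr12:68807922-68808171, plus strand: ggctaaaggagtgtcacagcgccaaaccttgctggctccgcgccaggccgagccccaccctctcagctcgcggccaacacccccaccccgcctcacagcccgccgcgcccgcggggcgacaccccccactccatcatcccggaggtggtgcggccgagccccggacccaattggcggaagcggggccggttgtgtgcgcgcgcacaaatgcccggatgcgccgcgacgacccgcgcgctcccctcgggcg

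PPM1D gene start, chr17:60599943-60600192, plus strand: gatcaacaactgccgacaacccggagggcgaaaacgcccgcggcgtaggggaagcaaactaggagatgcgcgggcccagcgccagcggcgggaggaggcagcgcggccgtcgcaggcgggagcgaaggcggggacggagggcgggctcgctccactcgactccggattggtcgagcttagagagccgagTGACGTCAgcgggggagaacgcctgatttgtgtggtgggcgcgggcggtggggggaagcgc

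TGACGTCA was found in 1.85% of the 35116 windows, and in none of the MDM2, MDM4 and CCNG1 windows. The MDM2 and PPM1D gene-start windows were rich in G and C, at 74.7% and 71.0%. The MDM4 window had 52.7% and that of CCNG1 56.0%, against a median of 58.7% over all windows. A match describes the letters of a window and is not by itself a bound site.

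Each library's list gives a fold enrichment per peak, the ratio of ChIP over background as the authors' peak caller wrote it. Peaks of all libraries of a target were merged where they overlapped by at least 1 bp. A merged region was called retained if every library of both genotypes had a peak there, KO-only if every KO and no WT library did, WT-only if every WT and no KO library did, and mixed otherwise. A comparison of 2 libraries with 2 cannot give an exact permutation p below 0.333, and 1 against 1 allows no test, so folds were set side by side and read against the same count over all regions. The KO lists held 278 MLL4 peaks, against 56770 in WT. For p53 the lists held 24972 and 62248 peaks in KO and 36525 and 32631 in WT, so KO replicate 2 had the longest p53 list. H3K4me3 lay at 5 of 8 epithelial marker genes (CDX2, EPCAM, KRT8, KRT18 and CDH1, but not CDX1, KRT20 or VIL1) in every KO and every WT library, and at 0 of 4 marker genes of blood, stromal and endothelial cells (PTPRC, CD3E, COL1A1 and PECAM1) in every library of either genotype.

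**Figure D1:**
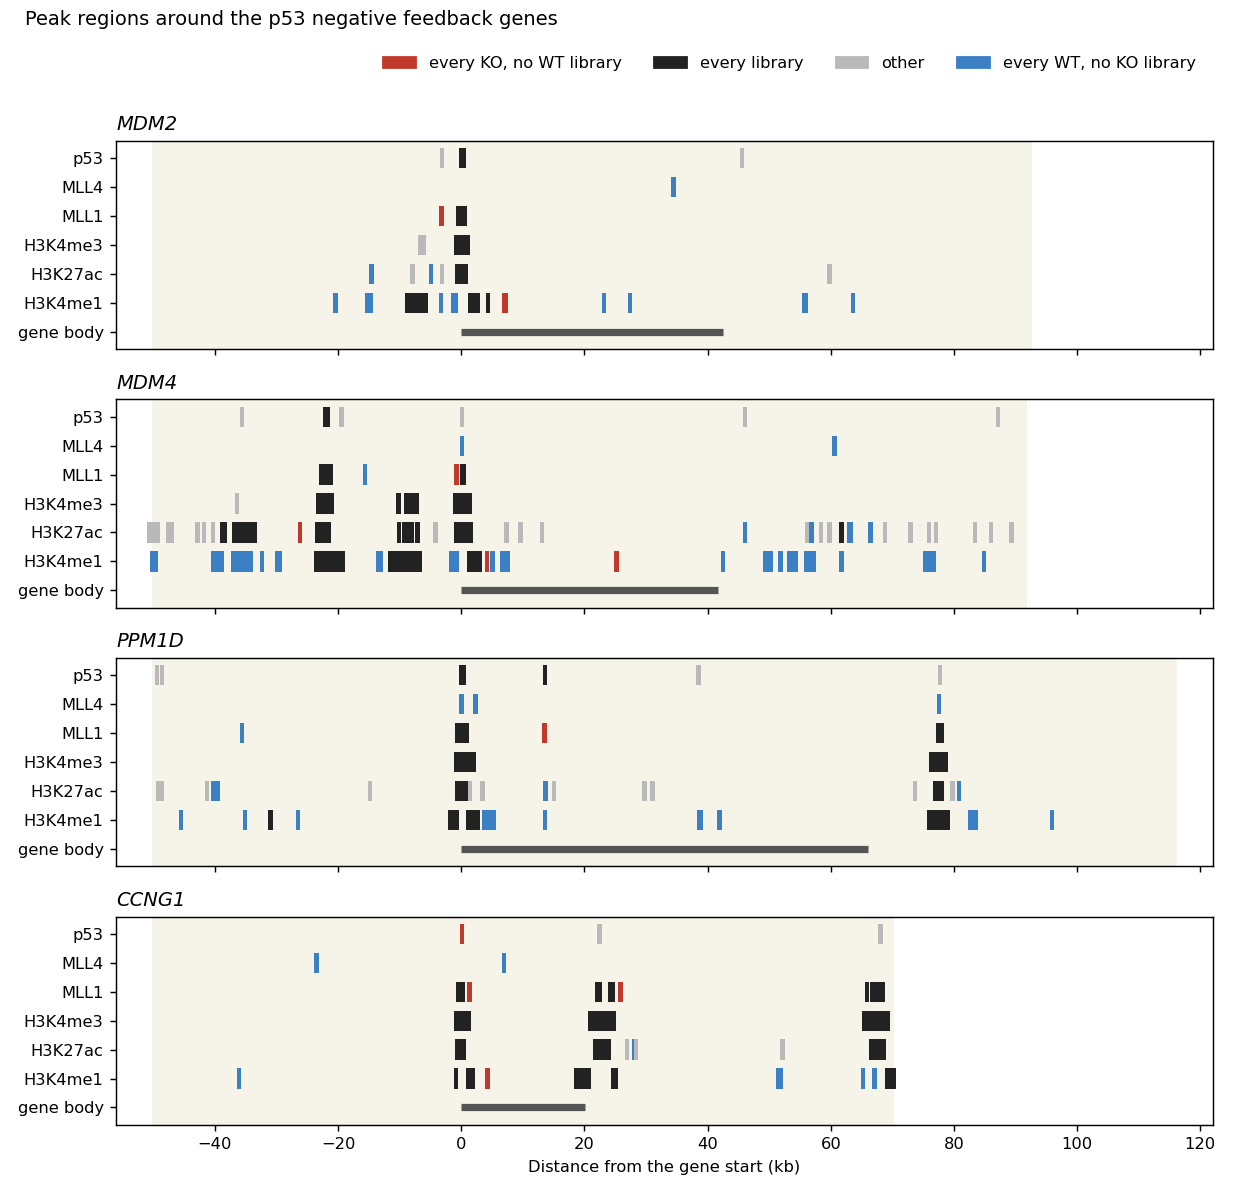
Merged peak regions of 6 ChIP targets by distance from each gene start (kb), with the gene body as a grey bar and the 50 kb flanks shaded. Colour gives the libraries that had a peak, and narrow regions are widened to stay visible. All 8 MLL4 regions are WT-only, and all 4 gene starts hold retained H3K4me3 and H3K27ac.

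p53 occupied the MDM2 and PPM1D gene starts in every library of both genotypes, the MDM4 start in 3 of 4 libraries, and the CCNG1 start in the KO libraries alone. The p53 region of highest WT fold in the 4 loci was inside PPM1D. Its fold was lower in both KO libraries than in both WT libraries, as in 55.7% of all retained p53 regions and 79.4% of those without retained H3K4me3, its own kind. Choosing a region by its WT fold favours that direction. Around the 4 genes there were 18 p53 regions, of which 4 were retained, 1 was KO-only, 0 were WT-only and 13 were mixed. Of the 6 regions present in both KO libraries 1 was KO-only, near the 17.6% of all such p53 regions, and of the 7 present in both WT libraries 0 were WT-only, where 12.7% of all were. KO replicate 2 alone held 6 of the 18 regions, and it alone held 38.1% of the 74231 p53 regions of the genome.

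At the MDM2 gene start, p53 had a fold enrichment of 8.10 and 11.4 in KO libraries and 8.96 and 10.4 in WT libraries. The genotypes overlapped, with 1 KO library below and the other above both WT libraries, and the log2 KO over WT fold was -0.0050 (SE 0.27, n = 2 each). By percentile of the fold within each library's own list KO was higher, at 81.8 and 95.5, against 65.3 and 43.5 in WT. Retained p53 lay at 36.4% of all gene starts and at 56.2% of those with retained H3K4me3, so its presence at MDM2 and PPM1D was common. Such shares over all gene starts are approximate, because a strand was known for 15813 of the 19974 genes. The MDM2 summits lay 351 and 38 bases after the gene start in KO, and 520 and 499 bases in WT, all before the second promoter. Neither response element printed above was under a p53 peak in any of the 4 libraries. The peaks ended 62 and 132 bases before the first element in KO, and 70 and 51 bases before it in WT. The first element lay under H3K4me3 and H3K27ac peaks in 4 of 4 libraries and under MLL1 peaks in 2 of 2, but under no MLL4 or H3K4me1 peak.

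The other MDM2 p53 regions were called in 1 library each. One lay at -3.14 kb over the pseudogene SZRD1P1, with a fold of 4.09 in KO replicate 2. The other lay 45.5 kb downstream of the start in CPM, a neighbouring carboxypeptidase gene, with 4.59 in KO replicate 1. Neither recurred in the second KO library or in WT.

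MDM4 carried p53 at its start with a fold of 6.97 and 9.95 in KO and 6.59 in WT replicate 1, while WT replicate 2 had no peak there. The summits lay just inside the gene, 91 and 129 bases after the start in KO and 183 in WT. A retained region at -21.9 kb covered the start of PIK3C2B, a lipid kinase gene, with 9.19 and 7.62 in KO and 9.06 and 7.05 in WT. The genotypes overlapped there. Downstream, 46.0 kb from the MDM4 start over the 5S pseudogene RNA5SP74, p53 had 6.91 in KO replicate 2 and 6.04 and 9.86 in WT, and no peak in KO replicate 1. Single peaks of KO replicate 2 lay at -35.6 kb (5.71), -19.5 kb (6.35) and +87.2 kb (3.17).

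PPM1D held p53 at its start with a fold of 8.94 and 11.9 in KO and 10.4 and 6.56 in WT. These values overlapped, and the log2 KO over WT fold was 0.32 (SE 0.39, n = 2 each). By percentile within each list KO was higher, at 88.1 and 96.4, against 78.8 and 24.3 in WT, but here too an equal fold ranks higher in a KO list. Within the gene, at chr17:60613443-60614117 and 13.6 kb from the start, the fold was 6.40 and 9.93 in KO and 13.7 and 24.0 in WT. Both KO libraries were below both WT libraries, with a log2 KO over WT fold of -1.19 (SE 0.51). This was the 1 of 4 retained p53 regions of the loci in which every KO fold lay below every WT fold. So did 55.7% of all 14296 retained p53 regions, and 4.09% had every KO fold above every WT fold. The share below was 79.4% in regions without retained H3K4me3, such as this one, and 37.9% in regions that met it, such as the other 3. The median log2 over all retained p53 regions was -0.76, and relative to it the MDM2 start was at 0.76, the PPM1D start at 1.09 and the internal PPM1D region at -0.42. That median mixes 2 kinds of region. It was -0.49 in retained regions that met retained H3K4me3, as both starts did, and -1.14 in those that did not. The internal region was of the second kind, and its -1.19 lay near the median of that kind. The internal region was singled out after its values were seen, as the one with the highest WT fold.

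Because folds of different lists need not share a scale, the internal PPM1D region was also set against the PPM1D start within each library. The internal fold was 0.716 and 0.836 times the start's in KO, and 1.32 and 3.66 times the start's in WT. The order of the 2 regions was thus opposite in the genotypes. Choosing the internal region by its WT fold favours a higher WT ratio, so nothing was read from this order. The ratio of 3.66 also rests on the lowest start fold, 6.56 in WT replicate 2. How often such an order occurs over the genome was not counted. At the internal region H3K27ac was WT-only, with 5.47 and 9.54 in WT, H3K4me1 was WT-only, with 3.03, and MLL1 was KO-only, with 7.85. No MLL4 peak lay there in either genotype. A part of these marks in the p53 difference was not tested.

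Upstream of PPM1D, where no gene is annotated, a pair of p53 regions lay at -49.4 and -48.5 kb from the start. The first had 6.78 in KO replicate 2 and 5.68 and 14.4 in WT, and the second 4.35 in KO replicate 2 and 8.20 and 15.0 in WT. KO replicate 1 had a peak at neither, although all WT libraries had both. Peaks of 1 library lay inside PPM1D at +38.5 kb (4.45, KO replicate 1) and near the start of BCAS3 at +77.7 kb (6.55, KO replicate 2).

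CCNG1 was the member with a KO-only p53 region, at its gene start, where the fold was 5.73 and 4.97 in KO and no peak was called in WT. The KO summits lay 181 and 155 bases after the start. With a −log10 q-value of at least 5, or with lists of equal length, 0 KO-only regions were left at the 4 loci. Of all protein-coding genes 8.04% had a KO-only p53 region within 1 kb of the start, and of the 10784 genes with retained H3K4me3 there 14.2% did. The region at 22.5 kb, over the start of NUDCD2, had 5.40 in KO replicate 1 and 5.55 in WT replicate 2. A further peak at 68.1 kb, at MAT2B, had 6.18 in KO replicate 2 alone.

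**Figure D2:**
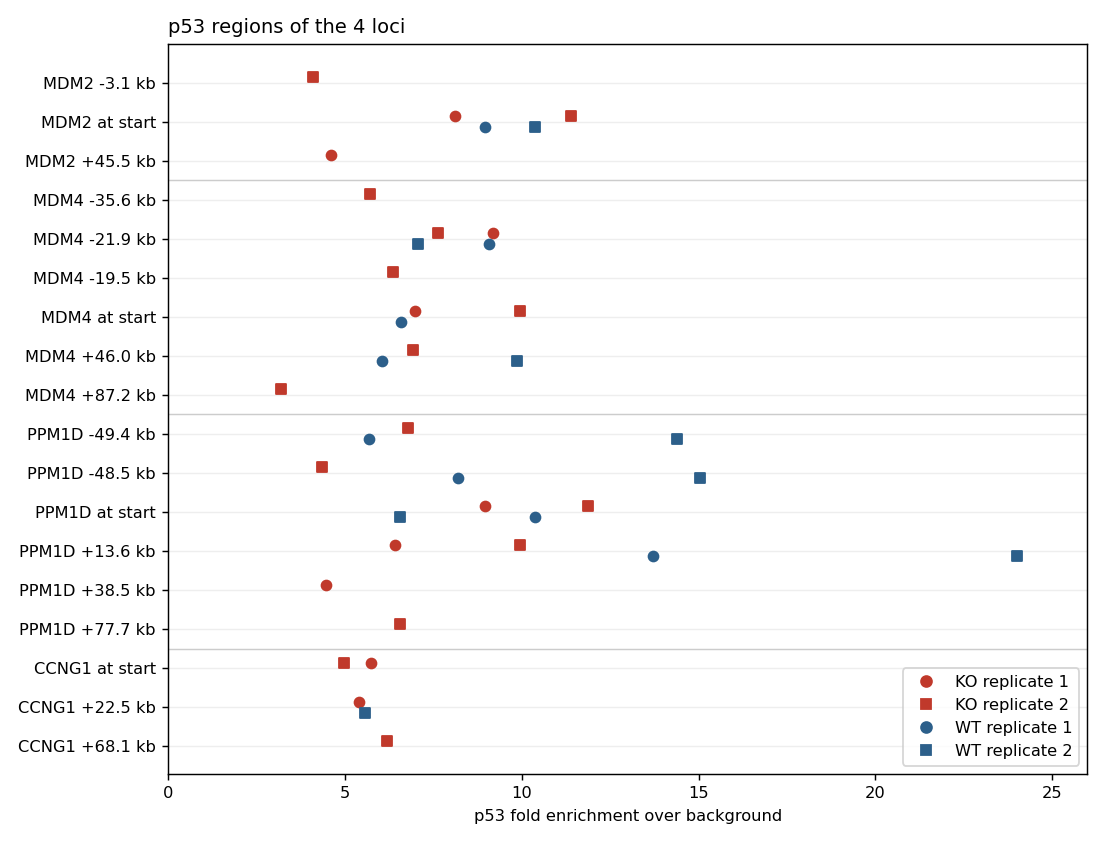
p53 fold enrichment over background (linear axis) in each of the 18 p53 regions, by gene and distance from its start; red points are KO and blue points WT libraries, circles replicate 1 and squares replicate 2, and a missing point means no peak. By fold, KO (6.40 and 9.93) lies below WT (13.7 and 24.0) in the region 13.6 kb inside PPM1D, and the genotypes overlap at the MDM2 start. The internal region was chosen by its high WT fold, which favours that direction. Every KO fold lay below every WT fold in 55.7% of all retained p53 regions, and in 79.4% of those without retained H3K4me3, its own kind. By percentile within each list the internal region overlaps (62.3 and 92.0 in KO, 95.7 and 86.8 in WT). The MDM2 start is then higher in KO (81.8 and 95.5 in KO, 65.3 and 43.5 in WT).

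The p53 regions differed in how they met H3K4me3. Of the 18, 8 (44.4%) met a retained H3K4me3 region, as did 22.2% of all p53 regions, and of the 4 retained ones 3 did, against 57.1% of all retained p53 regions. Over the genome the median log2 KO over WT p53 fold was -0.49 in retained regions that met retained H3K4me3 and -1.14 in those that did not. Every KO fold lay below every WT fold in 37.9% of those that met it and in 79.4% of those that did not. The MDM2 and PPM1D starts and the PIK3C2B start were of the first kind and overlapped in fold between genotypes, and the internal PPM1D region was of the second.

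MLL4 was called at 8 places around the 4 genes in WT, and at 0 in KO. All 8 were therefore WT-only, as were 99.8% of all MLL4 regions called in WT. With a −log10 q-value of at least 5, 3 were left. With the WT list cut from 56770 peaks to the 278 of the KO list 0 were left. So short a list leaves few peaks near any 4 genes, so nothing was read from that 0. Every member had at least 1 of them, as 91.9% of protein-coding genes had in such a window. At the gene starts MLL4 lay on MDM4 and PPM1D, and not on MDM2 or CCNG1.

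The MDM4 start had an MLL4 fold of 11.7 in WT, above 99.1% of the peaks of that list. Its summit was 84 bases after the start, close to the p53 summit there at 183 bases in WT. At the PPM1D start the fold was 6.11, above 90.8% of the list, with the summit at 192 bases beside a p53 summit at 189 and 371 bases in WT. Of all protein-coding genes 32.9% had an MLL4 peak within 1 kb of the start in WT, and of those with retained H3K4me3 there 48.7% did.

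Away from the starts, MLL4 lay in CCNG1 itself, 6.91 kb from the start, with a fold of 7.50, above 96.1% of the list. No p53, H3K4me3, H3K27ac or H3K4me1 peak met it. The other WT peaks were weaker, with 3.33 in MDM2 at 34.5 kb, 4.85 at 60.6 kb from MDM4 in LRRN2-AS1, 3.82 in PPM1D at 2.32 kb, 4.98 at 77.6 kb from PPM1D at the BCAS3 start, and 4.17 at -23.5 kb from CCNG1. The PPM1D peak at 2.32 kb and that at BCAS3 lay in retained H3K4me3, and those in MDM2, downstream of MDM4 and upstream of CCNG1 met none of the marks.

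MLL1, profiled in 1 library per genotype, was retained at all 4 gene starts and higher in KO at each. Retained MLL1 lay at 50.4% of all gene starts and at 92.2% of those with retained H3K4me3. The fold was 43.4 in KO and 8.60 in WT at MDM2, a log2 difference of 2.34. It was 22.6 in KO and 5.37 in WT at MDM4 (log2 2.07), 69.8 in KO and 12.7 in WT at PPM1D (log2 2.45), and 29.8 in KO and 8.60 in WT at CCNG1 (log2 1.79). The same direction held in 92.8% of all 14982 retained MLL1 regions, whose median log2 KO over WT was 1.44, and in 95.4% of those that met retained H3K4me3, whose median was 1.54. The members' direction was thus that of most of the genome's MLL1 promoter peaks. Relative to the median of all retained regions the log2 differences were 0.90 at MDM2, 0.63 at MDM4, 1.02 at PPM1D and 0.35 at CCNG1.

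Of the 17 MLL1 regions of the loci, 10 were retained, 5 were KO-only and 2 were WT-only. The retained ones at neighbouring starts had 38.2 in KO and 8.06 in WT at PIK3C2B, 22.1 in KO and 6.15 in WT at BCAS3, 65.3 in KO and 14.5 in WT at NUDCD2, and 47.9 in KO and 13.4 in WT at MAT2B. The exceptions were 24.4 kb from CCNG1 in HMMR (7.12 in KO and 7.52 in WT) and 65.9 kb from it in MAT2B (4.91 in KO and 5.13 in WT), where KO was lower. KO-only MLL1 peaks lay at -0.742 kb from MDM4 (5.72), 1.33 kb inside CCNG1 (5.83), at 25.9 kb from CCNG1 (4.53), at -3.18 kb from MDM2 (3.31) and at the internal PPM1D p53 region. The 2 WT-only peaks, at -15.7 kb from MDM4 and -35.6 kb from PPM1D, each had 3.76. Of MLL1 regions called in KO 5 of 15 were KO-only, against 48.3% of all, and of those called in WT 2 of 12 were WT-only, against 55.4%. The 10 retained regions of the loci all met retained H3K4me3, as did 13309 of all 14982 retained MLL1 regions, and the 2 WT-only ones did not. The shares over all regions were not split by H3K4me3, so the lower shares at the loci were not read as a trait of them.

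H3K4me3 was retained at all 4 gene starts, as at 54.0% of all protein-coding genes, and its level did not separate the genotypes. At MDM2 the fold was 174 and 214 in KO and 171 and 198 in WT (log2 0.07, SE 0.18). MDM4 had 104 and 120.1 in KO and 99.4 and 116 in WT (log2 0.05, SE 0.15). The KO and WT libraries overlapped at both.

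At PPM1D the H3K4me3 fold was 164 and 217 in KO and 158 and 201 in WT (log2 0.08, SE 0.27). CCNG1 had 111 and 140.4 in KO and 123 and 141 in WT (log2 -0.08, SE 0.19). These too overlapped, and the differences were smaller than their standard errors. Over all 15520 retained H3K4me3 regions the median log2 KO over WT was -0.0029, with every KO fold below every WT fold in 18.2% and above in 17.9%.

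Of the 13 H3K4me3 regions 10 were retained, 0 were KO-only, 0 were WT-only and 3 were called in 1 library. Over the genome 2.52% of regions in both KO libraries were KO-only and 5.35% of those in both WT libraries were WT-only. Among the retained ones, 7 overlapped between genotypes, 2 were lower in KO and 1 was higher. The BCAS3 start, 77.5 kb from PPM1D, had 108 and 84.4 in KO and 145 and 168 in WT (log2 -0.71). The shared NUDCD2 and HMMR starts, 22.9 kb from CCNG1, had 93.5 and 82.5 in KO and 94.3 and 128 in WT (log2 -0.32). Both KO libraries were below both WT libraries at these neighbours.

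The region that was higher in KO lay at -9.28 to -6.82 kb from the MDM4 start, with 17.4 and 16.05 in KO and 9.14 and 5.63 in WT (log2 1.22). Its summits lay at -8859 and -8753 bases in KO and -8811 and -6939 bases in WT. The fold of WT replicate 2 thus came from another part of the region. A pair of lysine tRNA genes, TRK-TTT3-1 and TRK-TTT3-2, lies between this region and a weaker retained region at -10.2 kb, with 14.8 and 9.31 in KO and 11.96 and 9.80 in WT. The weaker region overlapped between genotypes. H3K4me3 at PIK3C2B (114 and 167 in KO, 115 and 136 in WT) and at MAT2B (116 and 121 in KO, 104 and 118 in WT) overlapped as well. The single-library peaks were at -36.4 kb from MDM4 (6.55, WT replicate 2), and at -6.63 kb (4.51, WT replicate 2) and -6.07 kb (7.19, KO replicate 1) from MDM2.

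H3K27ac, by contrast, was lower in both KO libraries than in both WT libraries at every one of the 4 gene starts. It was retained at each, as at 58.9% of all gene starts and 97.0% of those with retained H3K4me3. MDM2, with the highest WT value of the set, had 56.6 and 62.1 in KO and 140.1 and 132 in WT (log2 -1.20, SE 0.08). MDM4 had 33.0 and 41.4 in KO and 83.8 and 91.4 in WT (log2 -1.25, SE 0.18). At both genes the higher KO value stayed below the lower WT value by more than the spread within either genotype.

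At PPM1D H3K27ac was 26.9 and 24.9 in KO and 49.0 and 38.8 in WT (log2 -0.75, SE 0.18). CCNG1 had 23.8 and 20.5 in KO and 40.4 and 39.8 in WT (log2 -0.86, SE 0.11). The genotypes did not overlap at either. Across the loci 12 of 14 retained H3K27ac regions were lower in KO and 0 were higher, with a median log2 of -0.86. Over all retained H3K27ac regions 79.0% were lower in KO and 1.95% higher, with a median of -0.81, and of those that met retained H3K4me3 84.5% were lower, with a median of -0.91. The members' starts thus moved as most retained H3K27ac regions did. Relative to the median of all retained regions MDM2 was at -0.39, MDM4 at -0.44, CCNG1 at -0.050 and PPM1D, on the other side, at 0.058.

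**Figure D3:**
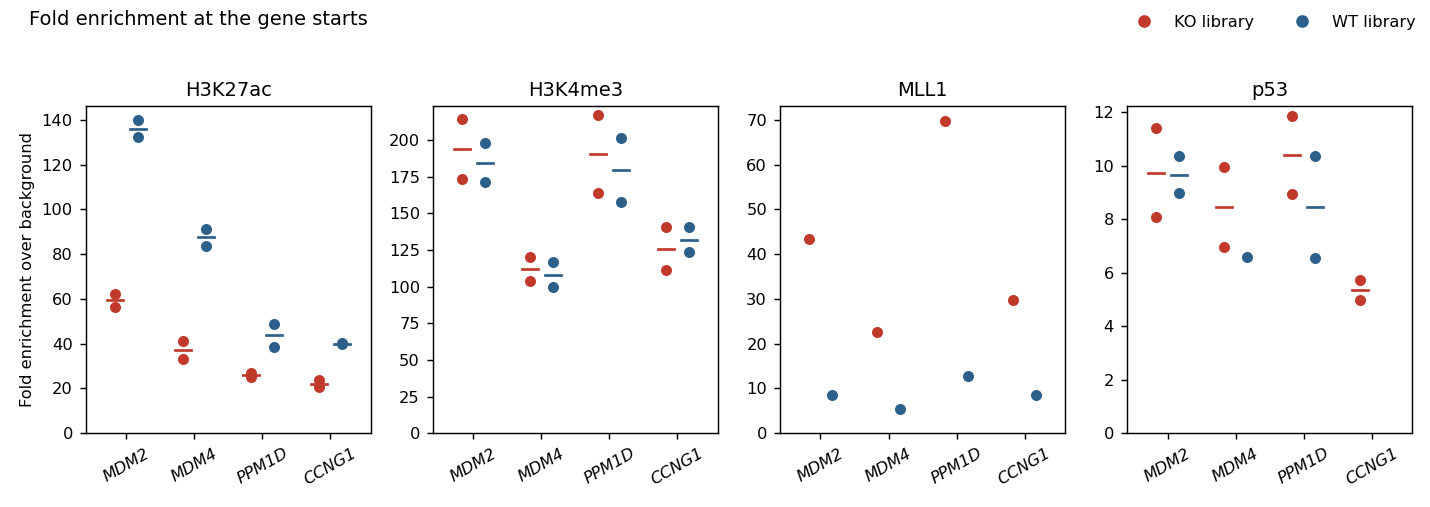
Fold enrichment over background (linear axes from 0, a scale for each target) at the 4 gene starts, KO libraries in red to the left of WT libraries in blue; short lines are means of 2 libraries. H3K27ac is lower in KO at each gene (MDM2 56.6 and 62.1 in KO, 140.1 and 132 in WT), H3K4me3 overlaps, MLL1 is higher in KO, and p53 at CCNG1 has KO points alone.

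**Figure D4:**
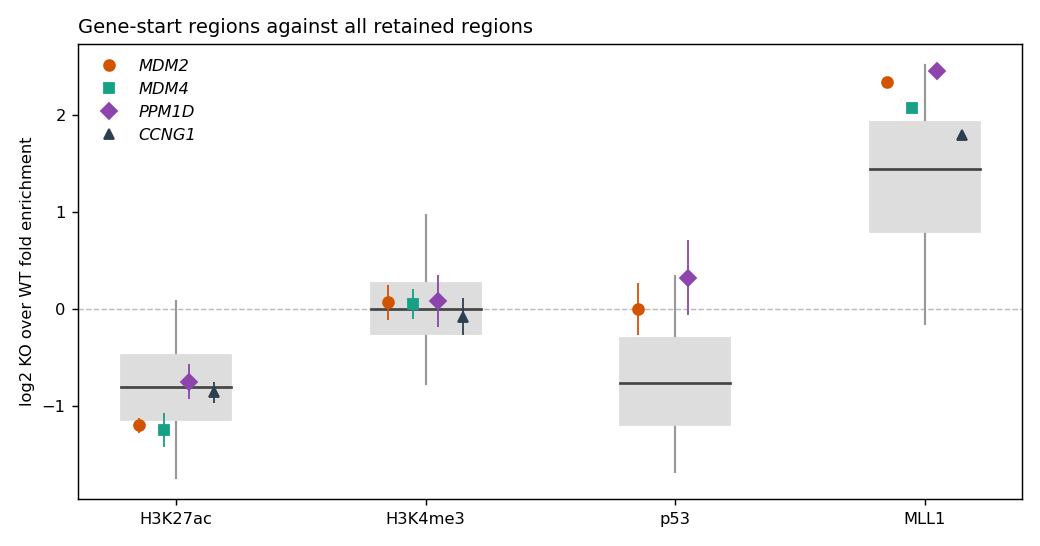
log2 KO over WT fold enrichment at the members' gene starts (symbols, with SE over 2 libraries per genotype; MLL1 has 1 library each and no error) over the median, quartiles (box) and 5th to 95th percentiles (line) of all retained regions of a target. MDM2 and PPM1D p53 (-0.0050 and 0.32) lie above the p53 median of -0.76, and above the -0.49 of retained p53 regions that met retained H3K4me3. H3K27ac and MLL1 have the sign of their targets' medians (-0.81 and 1.44), and H3K4me3 lies near 0, as its median of -0.0029 does.

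Among neighbours within the loci, H3K27ac had 17.8 and 16.9 in KO and 35.6 and 27.8 in WT at PIK3C2B. At the BCAS3 start it had 11.8 and 10.8 in KO and 23.4 and 25.6 in WT. At NUDCD2 and HMMR the values were 25.2 and 30.5 in KO and 39.4 and 48.6 in WT, and at MAT2B 20.4 and 14.3 in KO and 28.1 and 34.0 in WT. The genotypes were apart at all of these promoters. Upstream of MDM4, around the lysine tRNA genes, H3K27ac was lower in KO: 5.62 and 11.4 in KO and 12.3 and 16.8 in WT at -8.64 kb, and 4.41 and 4.08 in KO and 10.0 and 12.3 in WT at -7.16 kb. At -10.1 kb it had 5.19 and 4.28 in KO and 7.04 and 11.3 in WT. H3K4me3 was higher in KO in 1 region there, but the WT replicate 2 fold came from another part of that region. Over the genome 79.0% of retained H3K27ac regions were lower in KO, and 17.9% of retained H3K4me3 regions were higher.

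Regions of H3K27ac called in WT alone lay away from retained H3K4me3. Of the 27 regions called in both WT libraries, 10 (37.0%) were WT-only, where 55.2% of all were. The count of 10 depended on the lists: it was 2 with lists of equal length, 6 with a −log10 q-value of at least 5 and 37 without WT replicate 1. None of the 11 that met a retained H3K4me3 region was WT-only, and 10 of the 16 that did not were, against 3.39% and 63.9% over the genome. MDM2 had 2 WT-only of 3, MDM4 4 of 15, PPM1D 3 of 5 and CCNG1 1 of 4. Of the 15 regions called in both KO libraries 1 was KO-only, against 3.34% of all.

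For MDM2 the WT-only H3K27ac regions lay upstream, at -14.6 kb (4.21 and 3.69 in WT) and -4.88 kb (5.10 and 3.87 in WT). Others were called in part: at -3.13 kb with 3.96 in KO replicate 2 and 6.12 in WT replicate 2, and at -7.92 kb (5.74) and +59.8 kb (5.18) in WT replicate 2 alone. For MDM4 the 4 WT-only regions lay downstream. They were at 46.1 kb over the mixed p53 region at RNA5SP74 (4.51 and 5.56 in WT), 56.9 kb (4.51 and 5.18), 63.1 kb (3.31 and 4.43) and 66.5 kb (4.21 and 3.87). For PPM1D the WT-only regions lay at -39.8 kb (5.02 and 6.12 in WT), at the internal p53 region, and at +80.8 kb in BCAS3 (3.53 and 5.06 in WT). CCNG1 had its WT-only region in HMMR at 28.0 kb (3.31 and 2.94 in WT), and single peaks of WT replicate 2 at 26.9 kb (3.40) and 52.2 kb (4.43). All of these had lower folds than the gene starts, and those at -14.6 kb, at 28.0 kb and downstream of MDM4 were named after their values were seen.

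H3K4me1, profiled in 1 library per genotype as broad peaks, was WT-only in 38 of the 53 regions called in WT, or 71.7%, against 77.7% of all. It was KO-only in 4 of 19 regions called in KO, against 23.6% of all. The lists held 43636 peaks in KO and 125507 in WT, and with lists of equal length the balance turned round, with 13 KO-only and 9 WT-only regions. With a −log10 q-value of at least 5, 0 were KO-only, 17 WT-only and 0 retained. By gene, MDM4 had 17 of 20, MDM2 8 of 11, PPM1D 9 of 13 and CCNG1 4 of 9. Regions that met retained H3K4me3 were WT-only in 4 of 16, and the others in 34 of 37, against 6.88% and 90.2% over the genome. In the 15 retained regions KO was lower in 11 and higher in 4, and the median log2 KO over WT was -0.14. Over all retained H3K4me1 regions KO was lower in 79.4% and higher in 20.6%, with a median of -0.46.

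At the gene starts H3K4me1 flanked the H3K4me3. The flank at -1.13 kb from MDM2 was WT-only (3.64 in WT), while that 2.07 kb after it was retained, with 3.83 in KO and 4.13 in WT. MDM4 was alike, WT-only at -1.17 kb (3.48 in WT) and retained at 2.12 kb, with 4.08 in KO and 5.75 in WT. CCNG1 kept both flanks, with 3.74 in KO and 5.41 in WT before the start and 4.12 in KO and 4.54 in WT after it. PPM1D also kept both, with 3.71 in KO and 2.95 in WT before the start and 3.48 in KO and 3.66 in WT after it.

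The H3K4me1 region of highest WT fold in the 4 loci lay 56.7 kb downstream of the MDM4 start in LRRN2-AS1 (8.01 in WT) and was WT-only, as was one at 53.8 kb (6.63 in WT). At PIK3C2B the mark was retained, with 5.17 in KO and 6.74 in WT, and in an intergenic WT-only region at -14.9 kb from MDM2 it had 5.54. Upstream of MDM4 a WT-only region at -29.6 kb in PIK3C2B had 6.32. A region at -7.24 kb from MDM2 had 3.15 in KO and 5.41 in WT, and one at -3.25 kb was WT-only (3.96). Near PPM1D, the BCAS3 start had 4.33 in KO and 6.58 in WT, and WT-only regions lay at -45.5 kb (4.37) and +83.1 kb (4.19). Near CCNG1, the region at 19.7 kb had 3.55 in KO and 4.54 in WT, and WT-only regions lay at 65.2 kb (4.48) and 51.6 kb (4.31).

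The other genes of the pathway were counted in the same windows. A retained p53 region was found for 3 of the 4 feedback genes, 21 of 24 other p53 target genes and 17 of 20 genes whose products regulate p53, against 70.9% of all protein-coding genes. For MDM4 this region was the one at the PIK3C2B start, and the MDM4 start itself was mixed. A WT-only p53 region was found for 0, 3 and 5 of these genes, against 21.0% of all, and a KO-only one for 1, 8 and 10, against 34.9%. MLL4 was WT-only near every gene of all 3 lists, as near 91.9% of all genes. H3K27ac was WT-only near 4, 23 and 17 of them, against 82.8%.

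By the highest WT p53 fold in its window, FDXR, a mitochondrial reductase gene, led the other targets. Its region, 29.8 kb from the assigned gene start, had 14.9 and 15.2 in KO and 21.9 and 46.5 in WT. Among the regulators TRIM28 had 6.52 and 9.52 in KO and 12.1 and 34.5 in WT, UBE4B 5.91 and 6.28 in KO and 9.06 and 34.5 in WT, and PML 6.98 in KO replicate 2 and 9.06 and 29.6 in WT. The regions lay 18.7 kb (TRIM28), 178 kb (UBE4B) and 28.4 kb (PML) from the assigned starts, so they need not belong to the named genes. These regions were picked by their highest fold, which was a WT value in each, so nothing was read from lower KO values in them; every KO fold lay below every WT fold in 55.7% of all retained p53 regions.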

How the data were processed

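ChIP-seq peak lists of 18 libraries were used; the 2 inputs were not analysed here. Peaks were called with MACS2 2.1.1 on hg38, per the submitters' processing notes, for each library against the input of its genotype, per the peak names in the deposited files. Aligner, filters and read depth were not given in the sources used here, so folds carry no counting interval. In the deposited lists the fold enrichment is a ratio, the peak significance a −log10 p-value or −log10 q-value, and the score a whole number from the authors' caller; H3K4me1 lists are broad and hold no summit.

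Peaks on chromosomes 1 to 22 and X were merged in Python 3.11.15 with pandas 2.3.3 and NumPy 2.4.6, and the calls were checked on simulated lists. A gene-start region is the highest one within 1 kb of the RefSeq start, and its log2 KO over WT is the difference of mean log2 folds. A strand was known for 15813 of the 19974 protein-coding genes. The start of any other gene was set at its lower coordinate, which is the wrong end for a minus-strand gene. Shares over all gene starts, and counts at listed and marker genes, may miss starts for this reason. Promoter sequences are RefSeq's (GRCh38.p14), and exons were not used here.

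Members and lists were chosen with earlier results of these data known. Named were every p53, MLL4, MLL1 and H3K4me3 region, the gene-start H3K27ac and H3K4me1 regions with up to 4 others of highest WT fold per gene, and up to 3 genes per list by p53 fold. The split by H3K4me3, the comparison within libraries at PPM1D and the internal PPM1D region as a separate result were chosen after the values were seen. As alternatives, peaks were held to a −log10 q-value of 5 or more, and the calls were repeated with lists of equal length, flanks of 10 kb, an overlap of 50% of the shorter peak, centred folds, and leaving out each library.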

Additional observations from a re-analysis of the deposited data

How the results depend on the processing

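No paired analysis was possible because the results come from no test, and nothing in the labels says that replicate numbers mark a shared culture. Depth is unknown, so an uncalled peak is not shown to be absent, and peak numbers that differ between lists move every count. Causes of the changes below were not tested.

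With a −log10 q-value of at least 5, regions over the 4 members were KO-only 0 and WT-only 1 for p53, WT-only 3 for MLL4 and 0 for MLL1, KO-only 0, WT-only 6 and retained 9 for H3K27ac, and KO-only 0, WT-only 17 and retained 0 for H3K4me1; MLL4 was WT-only near 12 other targets and 12 regulators. With lists of equal length they were KO-only 0 and WT-only 1 for p53, WT-only 0 for MLL4, KO-only 2 and WT-only 2 for H3K27ac, and KO-only 13, WT-only 9 and retained 6 for H3K4me1. For MLL4 this kept 278 of 56770 WT peaks, so nothing was read from its 0. With flanks of 10 kb they were WT-only 5 for MLL4, WT-only 0 and retained 6 for MLL1, KO-only 0, WT-only 4 and retained 8 for H3K27ac and WT-only 14 for H3K4me1; p53 was retained near 11 regulators and WT-only near 1 other target, and H3K27ac WT-only near 11 regulators. With an overlap of 50% of the shorter peak H3K4me3 was WT-only in 1 region and H3K27ac KO-only in 2.

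Centred on the median of all retained regions, the gene-start log2 KO over WT was 0.76 at MDM2 and 1.09 at PPM1D for p53, and -0.39 at MDM2, -0.44 at MDM4, -0.050 at CCNG1 and, in the opposite direction, 0.058 at PPM1D for H3K27ac. The internal PPM1D p53 difference was then -0.42. The p53 median used here mixes retained regions that met retained H3K4me3 (median -0.49) with those that did not (median -1.14). The internal region was of the second kind.

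Leaving out 1 library at a time gave KO-only 1 to 7, WT-only 0 to 3 and retained 4 to 7 for p53, KO-only 0 to 1, WT-only 0 to 2 and retained 10 to 10 for H3K4me3, and KO-only 1 to 6, WT-only 11 to 37 and retained 14 to 16 for H3K27ac. p53 was KO-only 3 and WT-only 3 without KO replicate 2, KO-only 7 and retained 7 without KO replicate 1, and KO-only 2 without WT replicate 1. H3K27ac was WT-only 37 and KO-only 2 without WT replicate 1, KO-only 2 without KO replicate 1 and KO-only 6 without KO replicate 2. H3K4me3 was WT-only 1 without KO replicate 1, WT-only 2 without WT replicate 1 and KO-only 1 without KO replicate 2. The p53 log2 values ranged from -0.25 to 0.24 at MDM2, from -0.01 to 0.65 at PPM1D and from -1.59 to -0.78 inside PPM1D. Those of H3K4me3 ranged from -0.09 to 0.22 at MDM2, -0.06 to 0.17 at MDM4, -0.12 to 0.28 at PPM1D and -0.25 to 0.09 at CCNG1. Those of H3K27ac ranged from -1.27 to -1.13 at MDM2, -1.41 to -1.08 at MDM4, -0.92 to -0.58 at PPM1D and -0.96 to -0.75 at CCNG1.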
